A study of Mus musculus with 4 samples.

Results

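The proteasome and immunoproteasome subunit genes were followed in immune cells of healing mouse skin. All genes of the deposited tables whose symbol starts with Psma, Psmb, Psmc, Psmd or Psme and a number were taken, without pseudogene entries, which gave 45 of 31053 genes. The cells were live CD45+ leukocytes sorted from 3 mm excisional wounds and sequenced as 4 droplet libraries of 3′ ends, 1 for each genotype and time. Angptl4+/+ and Angptl4-/- mice were wounded, and their wounds were taken 1 or 5 days later (1 and 5 dpw, days post wounding). By the study's methods the wild type was C57BL/6J, the mice were 8-week-old males, and the knockout lacked the gene of a secreted lipase inhibitor in every cell, wounded skin included. The lines came from different sources, and the strain background of the knockout is not stated there. Genotype differences below are therefore differences between the lines, and the part of background was not tested. The number of mice behind a library was not given in the sources used here, and there were no replicates. No test between conditions was made, and every interval below covers counting error only.

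The proteasome is the protease of the cytosol and nucleus that degrades proteins tagged with ubiquitin. Its 20S core is built of alpha rings (Psma genes) and beta rings (Psmb genes), and the subunits encoded by Psmb5, Psmb6 and Psmb7 carry the catalytic sites. The 19S cap, made of ATPases (Psmc genes) and other subunits (Psmd genes), recognizes and unfolds substrates. In leukocytes and under interferon, Psmb8, Psmb9 and Psmb10 take the places of Psmb5, Psmb6 and Psmb7, in that order, and the core becomes the immunoproteasome, known for producing peptides for MHC class I. Psme1 and Psme2 encode PA28 alpha and beta, a cap that interferon also induces, while Psme3 and Psme4 encode the activators PA28 gamma and PA200.

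By role the 45 genes were 7 of the alpha ring, 4 structural genes of the beta ring, 3 constitutive and 3 immune catalytic genes, 6 ATPases and 11 other subunits of the 19S cap, 3 chaperones of cap assembly, PA28 alpha and beta, 2 other activators, 2 genes restricted to testis or thymus (Psma8 and Psmb11) and 2 further symbols (Psme2b and Psmc3ip). Psmc3ip is named for an interaction with a proteasome ATPase and encodes a meiotic recombination factor. Psme2b is a single-exon copy of Psme2 that shares 76.5% of its 31-base words with it, so its UMIs are uncertain, and 33.5% of the words of Psme2 are found in Psme2b. A pseudogene with the symbol Gm3375 shares 59.7% of the words of Psmb5, so the UMIs of Psmb5 are uncertain as well. Shares and pairs that hold Psmb5 are therefore only compared between classes and libraries.

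In GRCm38, Psmb8 (ENSMUSG00000024338) lies on chromosome 17 from 34197721 to 34201454 and Psmb9 (ENSMUSG00000096727) from 34181987 to 34187764, both inside the MHC. The deleted gene, Angptl4, lies on the same chromosome from 33773750 to 33781830, and Psmb9 is 400.2 kb from it. Whether alleles carried along with the deletion differ between the lines was not tested. Psmb10 (ENSMUSG00000031897) lies on chromosome 8 from 105935735 to 105938444, Psme1 (ENSMUSG00000022216) on chromosome 14 from 55578123 to 55581529 and Psme2 (ENSMUSG00000079197) next to it from 55587441 to 55591113. Psmb5 (ENSMUSG00000022193) is also on chromosome 14, from 54614119 to 54618022.

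The promoter letters of these genes are shown because the immune and the constitutive members differed in a neutrophil-like cluster led by interferon-induced genes, described further on. RefSeq promoters (GRCm38.p6, 250 bases before to 50 after the start) were at hand for 38 of the 45 members and were searched on both strands for GAAA followed by 2 free bases and GAAA again, the core of the interferon-stimulated response element, and TTCNNNGAA, the core of the gamma-activated site. The first was found in 4 of the 38 (Psmb3, Psmd4, Psmd9 and Psme1) and in 3.49% of 27025 promoters, and the second in 2 (Psmb8 and Psmd2) and in 8.47%. GGGA followed by 2 free bases and TTCC, for NF-κB, was found in 1 of 38 and in 1.43% of all promoters. CCAAT was found in 15 of 38 and in 37.9%, and the GC box GGGCGG in 22 of 38 and in 35.9%. The match of Psmb8 starts 97 bases before the RefSeq start and that of Psme1 9 bases after it, on the reverse strand. Both matches lie inside the gene spans given above, which start farther upstream than the RefSeq starts. They are shown 5′ to 3′ on the strand of the gene, with the match in capitals.
Psmb8, chr17:34198088-34198117, plus strand: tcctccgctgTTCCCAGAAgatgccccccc
Psme1, chr14:55578493-55578522, plus strand: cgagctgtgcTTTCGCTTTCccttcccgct

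For the pair Psmb10 and Psmb5, an immune and a constitutive member, the part of the window that lies outside annotated exons held none of the 5 motifs. A match is a description of the sequence, and a missing match says only that the letters are not in the window.
Psmb10, chr8:105938445-105938642, minus strand: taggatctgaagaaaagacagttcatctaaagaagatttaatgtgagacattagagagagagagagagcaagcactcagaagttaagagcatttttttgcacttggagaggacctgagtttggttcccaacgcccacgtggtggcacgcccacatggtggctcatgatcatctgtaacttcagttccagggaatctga
Psmb5, chr14:54618023-54618245, minus strand: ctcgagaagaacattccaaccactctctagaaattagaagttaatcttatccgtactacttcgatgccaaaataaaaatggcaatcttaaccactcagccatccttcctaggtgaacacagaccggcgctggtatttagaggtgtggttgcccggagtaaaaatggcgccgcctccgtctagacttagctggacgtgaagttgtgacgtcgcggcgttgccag

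Between 4738 and 5346 cells per library passed the filter, with median depths of 3736 to 4976 UMIs. The deposited UMIs totalled 26981596 to 32962595 per library, and pairs of libraries shared 4 to 15 cell barcodes. Angptl4 itself had 47 and 78 UMIs in the Angptl4+/+ libraries and 0 in both Angptl4-/- libraries. Clustering without the members and their listed partners gave 13 clusters, which marker lists joined into neutrophil-like, macrophage-like, monocyte-like and dendritic cell-like classes, 1 class with markers of both NK and T cells (NK/T-like), and 1 of B cells. B cell-like cells numbered 2 to 27 per library and are not described. The erythroid list summed to 939.7 of 1000000 UMIs (CPM) in neutrophil-like cells of the Angptl4-/- library at 5 dpw and to less than 2 in the other libraries. The mast cell list summed to 822.7 in monocyte-like cells of that library, to 18.6 in the Angptl4+/+ library at 5 dpw and to 0 at 1 dpw, and its part in the monocyte values was not tested.

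Proteasome transcripts took up a several-fold smaller share of the RNA in neutrophil-like cells than in any other class. In the order Angptl4+/+ at 1 dpw, Angptl4+/+ at 5 dpw, Angptl4-/- at 1 dpw and Angptl4-/- at 5 dpw, which holds for all series of 4 values below, the members made up 0.112%, 0.180%, 0.1001% and 0.158% of the UMIs of neutrophil-like cells. In macrophage-like cells they made up 0.557%, 0.563%, 0.545% and 0.632%, and in dendritic cell-like cells 0.857%, 0.784%, 0.861% and 0.711%. Monocyte-like cells, with 0.573% to 0.667%, and NK/T-like cells, with 0.504% to 0.677%, overlapped with the macrophage-like values and lay below the dendritic ones. No neutrophil value overlapped with a value of another class.

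Levels are CPM, UMIs of a gene in 1000000 UMIs of a class, counted at 3′ ends, where a transcript is tagged once whatever its length, so no length scaling applies and genes are only ranked. A gene entered a comparison with at least 100 UMIs over the pair, and was called at 1.5-fold or more. In macrophage-like over neutrophil-like cells, 42 of 42, 41 of 42, 42 of 42 and 41 of 42 entered members were called higher, while 68.0%, 58.6%, 67.8% and 56.6% of all entered genes were. The median log2 ratios of the members were 2.35, 1.68, 2.55 and 2.01, beside 1.43, 0.95, 1.45 and 0.87 over all entered genes. In dendritic cell-like over neutrophil-like cells the counts were 42 of 42, 42 of 42, 40 of 40 and 41 of 42, with 59.7%, 47.7%, 58.9% and 47.9% of all genes called. There the medians were 3.00, 1.95, 3.41 and 2.18 for the members and 1.06, 0.48, 1.03 and 0.49 for all genes.

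Psmb8, which encodes the immune subunit with chymotrypsin-like activity, was the member with the highest mean level in neutrophil-like and in dendritic cell-like cells and the second highest in macrophage-like cells. Its level was 60.4, 118.3, 68.0 and 112.8 CPM in neutrophil-like cells, 294.6, 333.7, 320.0 and 380.2 CPM in macrophage-like cells, and 1065, 1228, 1059 and 1045 CPM in dendritic cell-like cells. The 3 classes did not overlap. After thinning to 1000 UMIs, 5.04%, 11.1%, 5.601% and 9.97% of neutrophil-like, 20.4% to 27.6% of macrophage-like and 55.9% to 65.1% of dendritic cell-like cells had a UMI of Psmb8, with 86 to 157 shallower cells per library left out. Without thinning the shares were 20.2% to 24.5%, 59.6% to 80.7% and 96.6% to 99.5%. Psme1 and Psma7, a gene of the alpha ring, completed the top 3 in neutrophil-like cells, and Psma7, at 373.9, 404.3, 322.0 and 419.8 CPM, led in macrophage-like cells with Psmb8 and Psme1 after it. Among the entered members the lowest were Psmd9, Psmd5 and Psmd1 in neutrophil-like cells, at means of 3.97 CPM and above, and Psmd5, Psme2b and Psmd9 in macrophage-like cells, at means of 17.3 CPM and above. Psmd5 and Psmd9 encode chaperones of cap assembly and Psmd1 a scaffold subunit of the cap. Psma8 and Psmb11, which belong to the spermatoproteasome and the thymoproteasome, stayed at 0 to 3.46 CPM in every class described, and Psmc3ip at 0 to 19.6 CPM.

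**Figure D1:**
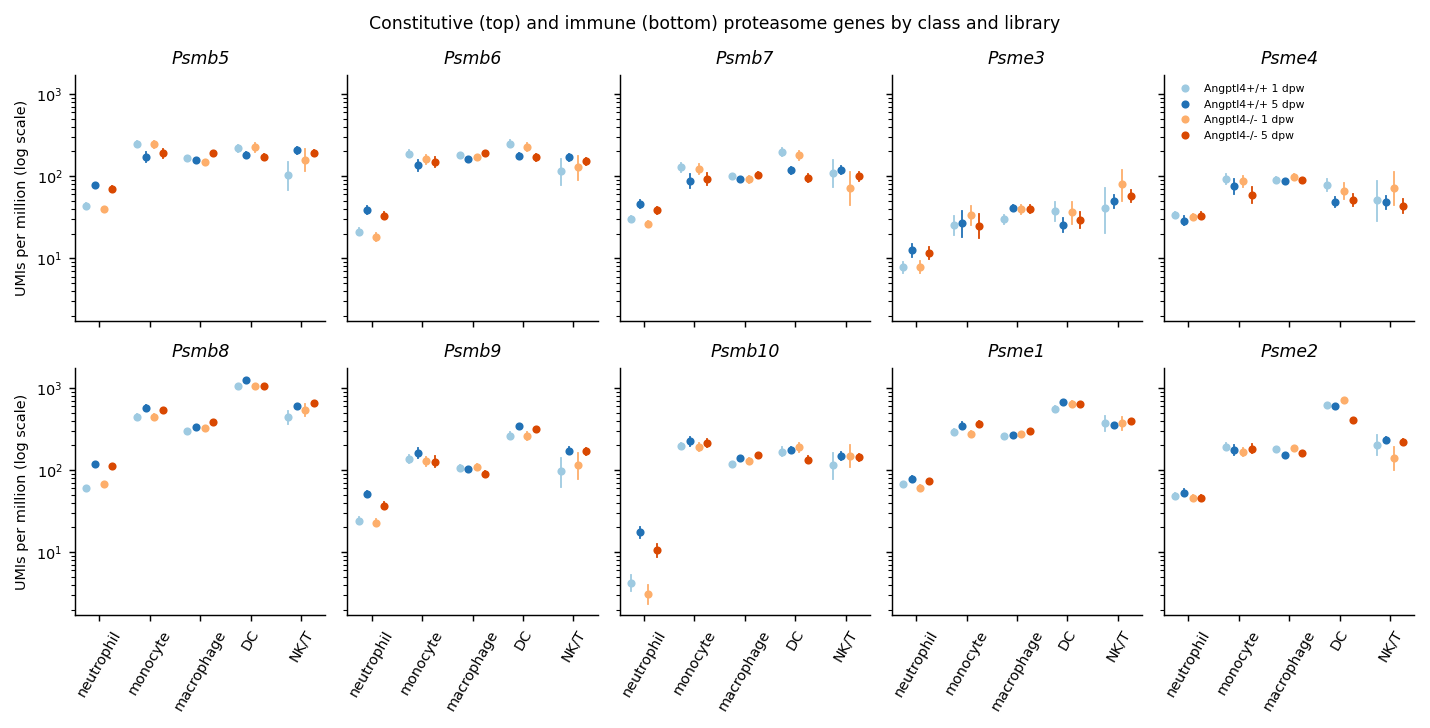
Levels of 5 constitutive (top) and 5 immune (bottom) proteasome genes in CPM of the class, on a log scale. Points are the 4 libraries in each of 5 cell classes and bars are exact Poisson 95% intervals; Psmb10 in neutrophil-like cells lies between 3.11 and 17.5, and Psmb8 in dendritic cell-like cells between 1045 and 1228.

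Psmb10 stood apart in neutrophil-like cells. This immune subunit, which takes the place of Psmb7 and its trypsin-like activity, had 4.22, 17.5, 3.11 and 10.6 CPM there. In macrophage-like cells it had 119.0, 141.9, 130.1 and 153.0 CPM, and in dendritic cell-like cells 167.3, 175.1, 189.3 and 133.1 CPM. The neutrophil values rested on 83, 151, 57 and 130 UMIs. They amounted to 3.55%, 12.3%, 2.39% and 6.93% of the macrophage level, while the macrophage genes C1qa, C1qb and C1qc reached 0.105% to 0.732% of their own macrophage level in the same cells. Cd74, the invariant chain of MHC class II, reached 2.25%, 1.37%, 1.51% and 0.796% of its macrophage level there, which at 1 dpw is close to the share of Psmb10. After thinning each cell to 1000 UMIs, 0.363%, 1.66%, 0.353% and 1.05% of neutrophil-like cells had a UMI of Psmb10, and 9.44% to 12.9% of macrophage-like cells did. Without thinning the shares were 1.85%, 5.05%, 1.32% and 3.34% of neutrophil-like cells and 40.8% to 66.6% of macrophage-like cells, at median depths of 3218 to 4683 and 5905 to 11566 UMIs. In a finer clustering (resolution 1.0) a neutrophil-like cluster led by Cma1 and the listed mast cell genes Mcpt4 and Cpa3 appeared. It made up 5.94% to 12.7% of the class and had 3.72 to 44.2 CPM of Psmb10. Its part in the values of the class was not tested.

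Set against the subunits they replace, the 3 immune genes were not shifted alike. Of the UMIs of Psmb10 and Psmb7 together, Psmb10 had 12.4%, 27.6%, 10.6% and 21.7% in neutrophil-like cells, with the widest interval from 23.9% to 31.5%, and 45.6% to 71.9% in the 4 other classes. For the pair Psmb8 and Psmb5, the immune gene had 58.0% to 63.1% in neutrophil-like cells, 63.9% to 68.2% in macrophage-like cells and 82.5% to 87.2% in dendritic cell-like cells. For Psmb9 and Psmb6, whose constitutive subunit has caspase-like activity, the order of neutrophil-like and macrophage-like cells was turned. Psmb9 had 53.4%, 56.8%, 55.8% and 52.6% of the pair in neutrophil-like cells and 37.3%, 38.9%, 39.1% and 32.0% in macrophage-like cells, and no library of one class overlapped with one of the other.

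Joined into 1 share, Psmb8, Psmb9 and Psmb10 held a smaller part of the catalytic UMIs in neutrophil-like cells than in the other classes described. The immune share, with exact Clopper-Pearson 95% intervals, was 48.4% (46.7 to just under 50), 53.5% (51.7 to 55.3), 52.7% (51.0 to 54.5) and 53.0% (51.4 to 54.6) in neutrophil-like cells. It was 53.9% (52.8 to 54.9), 58.2% (57.3 to 59.0), 57.7% (56.4 to 59.0) and 56.2% (55.2 to 57.3) in macrophage-like cells, and 69.2% (67.6 to 70.7), 78.6% (77.8 to 79.5), 70.5% (68.7 to 72.2) and 77.5% (76.4 to 78.5) in dendritic cell-like cells. Neutrophil-like and macrophage-like cells lay close together, and the dendritic cell-like values lay above both in every library. In NK/T-like cells the share was 65.2% to 69.0%, with intervals of up to 60.2 to 72.0 at 1 dpw, where only 35 and 36 cells were counted.

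PA28 alpha and beta, from Psme1 and Psme2, followed the same order of classes. In dendritic cell-like cells Psme1 had 555.7, 670.2, 641.9 and 635.6 CPM and Psme2 616.9, 605.1, 702.8 and 401.1 CPM. In macrophage-like cells Psme1 had 260.7, 266.9, 275.0 and 294.8 CPM, and in neutrophil-like cells 68.4, 78.7, 61.1 and 72.6 CPM. Of the UMIs of all 4 activator genes, the pair held 91.0% to 94.5% in dendritic cell-like cells, 76.6% to 78.5% in macrophage-like cells and 72.6% to 76.2% in neutrophil-like cells. Psme4, the gene of PA200, went the other way in the first of these classes, with 48.5 to 78.4 CPM in dendritic cell-like and 86.8 to 97.1 CPM in macrophage-like cells.

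**Figure D2:**
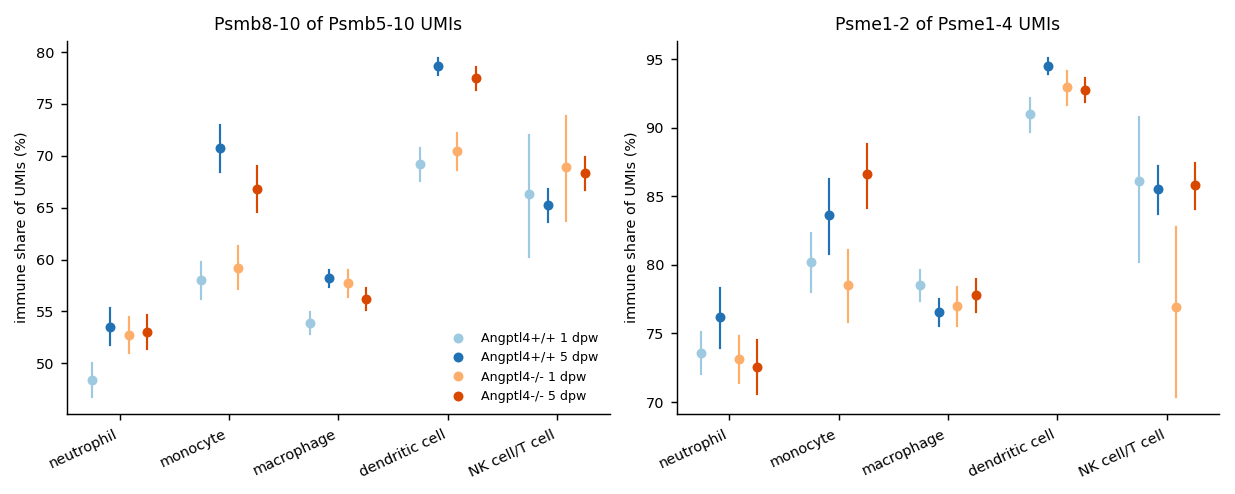
Immune share of catalytic UMIs (left: Psmb8, Psmb9 and Psmb10 of these plus Psmb5, Psmb6 and Psmb7) and of activator UMIs (right: Psme1 and Psme2 of Psme1 to Psme4) in percent, by class and library, with exact 95% intervals; the axes do not start at 0. The catalytic share of dendritic cell-like cells lies between 69.2% and 78.6%, that of neutrophil-like cells between 48.4% and 53.5%.

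Within neutrophil-like cells the immune share was highest in 1 of 7 clusters, which is led by the interferon-induced genes Ifit1, Ifit3b and Rsad2. This cluster held 772 of 1747, 538 of 1612, 821 of 1722 and 729 of 1965 UMIs of the immune catalytic genes, so most lay outside it. The members took no part in forming the clusters. In this cluster, of 557, 311, 549 and 413 cells, the immune share was 81.2%, 81.8%, 81.4% and 80.4%, above every value of the dendritic cell-like class as a whole. In the 6 other neutrophil-like clusters it ranged from 22.8% to 69.0%. Psmb8 had 180.8, 347.1, 204.5 and 338.3 CPM in the cluster and 37.9, 87.1, 42.6 and 79.6 CPM in the other neutrophil-like cells, and the groups did not overlap. The log2 ratios were 2.26 (2.09 to 2.42), 1.995 (1.81 to 2.18), 2.26 (2.10 to 2.42) and 2.09 (1.93 to 2.25).

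Psmb9 was shifted to a like extent, Psme1 and Psme2 less so, and of the constitutive genes Psmb5 pointed the other way in all 4 libraries. Psmb9 had 57.9, 123.4, 68.7 and 106.0 CPM in the interferon-led cluster and 18.0, 41.1, 14.4 and 26.6 CPM outside it, at log2 ratios of 1.69, 1.59, 2.26 and 1.997. Psmb10 entered only at 5 dpw, where the ratios were 1.86 (1.34 to 2.36) with Angptl4 and 0.96 (0.31 to 1.57) without it, and it had at most 12.9 CPM in the cluster at 1 dpw. The ratios were 0.62, 0.97, 0.97 and 1.05 for Psme1 and 0.79, 1.10, 1.03 and 1.13 for Psme2. Psmb5 was lower in the cluster in all 4 libraries, at -1.10 (-1.47 to -0.74), -0.63 (-1.06 to -0.23), -0.48 (-0.82 to -0.15) and -0.68 (-1.05 to -0.33). Psmb6 gave -0.77, -0.47, -0.70 and -0.28 and Psmb7 gave -0.49, -0.45, -0.18 and 0.02, and the intervals of Psmb6 at 5 dpw and of Psmb7 in all but the first library held 0.

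In total 5 of 38, 7 of 39, 5 of 37 and 6 of 39 entered members were at least 1.5-fold higher in the interferon-led cluster, beside 4.65%, 6.94%, 4.98% and 5.12% of all entered genes. Members at least 1.5-fold lower numbered 10, 3, 15 and 7, beside 20.3%, 12.7%, 20.7% and 21.2% of all genes, a share above the background at 1 dpw and below it at 5 dpw. The median of the members was -0.31, -0.04, -0.39 and -0.21, beside -0.23, -0.04, -0.24 and -0.20 for all genes. It thus lay below that of all genes at 1 dpw and close to it at 5 dpw. Psme2b, with its uncertain UMIs, was higher by 2.76, 1.73, 2.88 and 2.41, which is more than Psme2. Of the genes that act next to the immunoproteasome, Tap1, a peptide transporter whose gene abuts Psmb9, was higher by 2.48, 2.21, 2.35 and 2.56, and B2m, the light chain of MHC class I, by 0.86, 0.82, 0.91 and 0.86.

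**Figure D3:**
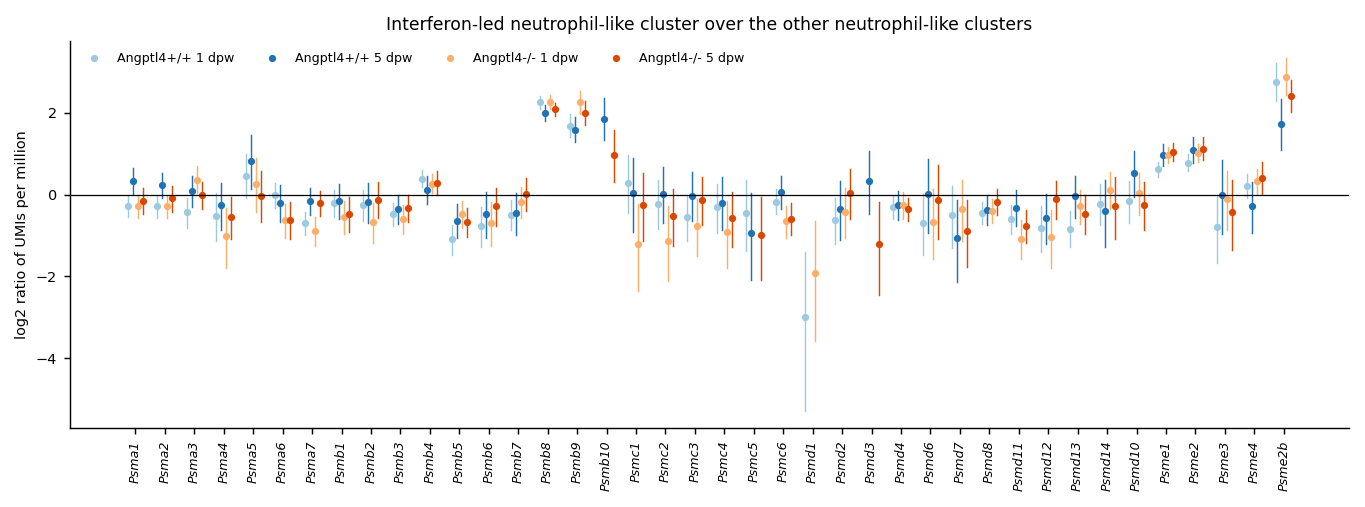
Log2 ratio of CPM in the interferon-led neutrophil-like cluster over the other neutrophil-like clusters, for each entered member and library, with exact conditional 95% intervals. Psmb8 lies between 1.995 and 2.26 and Psmb5 between -1.10 and -0.48.

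Another neutrophil-like cluster had a high immune share at 5 dpw with interferon-induced genes far below the interferon-led cluster. It is led by Ngp, Pglyrp1 and Mmp8, genes of neutrophil granules, and its immune share was 54.7%, 68.1%, 51.1% and 69.0%. Its interferon-induced genes summed to 692.4, 755.0, 749.5 and 1137 CPM, where the interferon-led cluster had 7480, 8627, 10587 and 10873 CPM. At 5 dpw its sum was the highest of the 6 other clusters, the rest having 422.6 to 574.0 CPM in Angptl4+/+ and 576.0 to 1011 CPM in Angptl4-/- wounds. Psmb10 had 2.07, 17.7, 1.249 and 20.2 CPM in it, beside 4.22, 17.5, 3.11 and 10.6 CPM in neutrophil-like cells as a whole. At the low end stood the cluster led by Fnip2, Syne1 and Pdcd1lg2, with an immune share of 27.6%, 22.8%, 25.6% and 23.5%. It had 87.7, 109.5, 83.8 and 84.9 CPM of Psmb5 and 52.4, 39.3, 37.4 and 38.6 CPM of Psmb8.

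Macrophage-like cells also held a cluster with a higher immune share. It is led by Ms4a7, Ccl8 and Ccl12, with the complement genes C1qa, C1qb and C1qc behind them, and its share was 62.0%, 64.5%, 63.3% and 62.8%. The other cluster, led by Retnla, Arg1 and Mmp12, had 46.0%, 50.6%, 49.5% and 46.1%. Psmb10 had 196.3, 203.4, 180.7 and 209.5 CPM in the former and 71.5, 93.2, 81.5 and 92.4 CPM in the latter, while Psmb5 had 168.9, 162.9, 157.1 and 186.3 CPM and 164.8, 157.0, 141.6 and 195.1 CPM. The clusters thus differed in the immune genes and overlapped in Psmb5. The former made up 25.04%, 36.3%, 31.9% and 47.2% of macrophage-like cells, and the part of this mix in the share of the whole class was not tested.

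The finer clustering of all cells (resolution 1.0) gave dendritic cell-like clusters of 464, 336 and 130 cells, where the main class held 724. These clusters thus took in cells that were classed otherwise in the main clustering. The cluster of 336 cells was led by Fscn1, Ccl22 and Ccr7, genes of mature migratory dendritic cells. Its immune share was 74.3%, 84.1%, 73.3% and 80.4%, with Psmb8 at 1552, 1759, 1487 and 1444 CPM. The cluster led by Retnla, Mgl2, Lyz1 and Cd209a had 53.8%, 61.9%, 61.0% and 61.0%, with Psmb8 at 445.7, 474.7, 445.4 and 461.5 CPM, a level close to that of monocyte-like cells. It scored 1.097 on the dendritic cell markers and 1.088 on the macrophage markers, so its name is uncertain. The cluster led by Siglech and Ccr9, genes of plasmacytoid dendritic cells, had 67.8%, 75.1%, 69.7% and 78.8% on 16 to 51 cells.

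**Figure D4:**
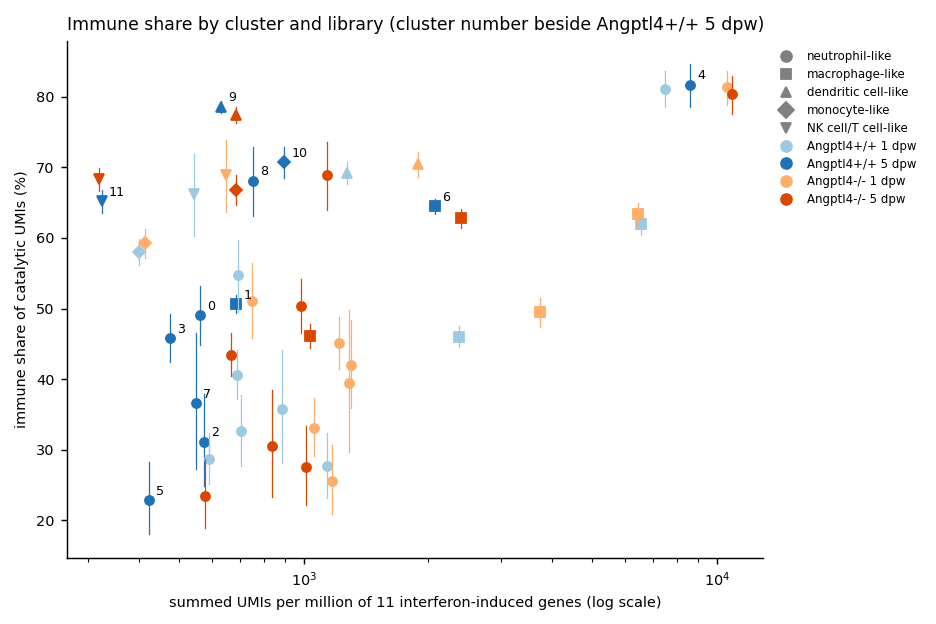
Immune share of catalytic UMIs (percent, exact 95% intervals) against the summed level of 11 interferon-induced genes (CPM, log scale) for each cluster and library; shapes are classes, colours libraries and numbers clusters. The interferon-led neutrophil-like cluster (4) lies at the upper right with shares of 80.4% to 81.8%, while dendritic cell-like cells (9) reach 78.6% at 630.1 to 1894 CPM of these genes.

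Between 1 and 5 dpw, levels in neutrophil-like cells moved upward for most genes and not for the proteasome alone. Of the entered members, 30 of 42 were at least 1.5-fold higher at 5 dpw in Angptl4+/+ wounds and 27 of 41 in Angptl4-/- wounds, while 53.9% and 55.6% of all entered genes were. The medians were 0.78 and 0.73 for the members and 0.65 and 0.68 for all genes, so the members are read against that shift. With the ratios centred on the median of all genes, 6 of 42 and 8 of 41 members were called either way, beside 39.15% and 39.69% of all genes. With cells thinned to 1000 UMIs, 19 of 30 were higher in Angptl4+/+ wounds, beside 40.18% of all genes. In Angptl4-/- wounds 17 of 30 were higher and 1 lower, beside 43.27% of all genes higher. The median depth of neutrophil-like cells was 4683, 3218, 4636 and 3392 UMIs in the 4 libraries, and the part of depth in these ratios was not tested.

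Psmb10 showed the largest ratio of day, 2.05 (1.66 to 2.46) with Angptl4 and 1.77 (1.31 to 2.24) without it. The part of the finer cluster led by Cma1, Mcpt4 and Cpa3 in these ratios was not tested. Psmd3, a scaffold subunit of the cap, followed with 4.37, 14.3, 3.38 and 10.8 CPM in the 4 libraries, which gave ratios of 1.71 and 1.68. The ratios of Psma4, of the alpha ring, were 1.41 and 1.496. Psme1 and Psme2 stayed behind the general shift, at 0.20 (0.07 to 0.34) and 0.25 (0.12 to 0.38) for Psme1 and 0.13 (-0.04 to 0.29) and -0.01 (-0.17 to 0.14) for Psme2. They thus parted from Psmb8, at 0.97 and 0.73, and Psmb9, at 1.07 and 0.69. The constitutive catalytic genes were higher at 5 dpw too, so the rise was not particular to the immune ones. Psmb5 had 43.7, 77.3, 39.8 and 70.6 CPM, Psmb6 21.2, 38.8, 18.1 and 33.2 CPM and Psmb7 29.95, 46.0, 26.3 and 38.3 CPM. Psme4 went down with time in Angptl4+/+ wounds, at -0.25 (-0.47 to -0.04), and gave 0.07 (-0.12 to 0.25) in Angptl4-/- wounds. By role, all 6 ATPases were called higher in Angptl4-/- wounds and 5 of 6 in Angptl4+/+ wounds, while 0 of 2 genes of PA28 alpha and beta were called in either. Over all entered genes 55.6% were called higher in Angptl4-/- and 53.9% in Angptl4+/+ wounds, and the counts of the other roles are not given. The immune share of neutrophil-like cells was 5.18 points (2.77 to 7.59) higher at 5 dpw in Angptl4+/+ wounds and differed by 0.27 points (-2.08 to 2.62) in Angptl4-/- wounds. Without the interferon-led cluster these differences were 9.02 points (6.29 to 11.7) and 4.21 points (1.47 to 6.93), so that neither interval held 0. Within the cluster led by Stfa3 it was higher in both, by 17.1 points (12.2 to 21.9) and 10.4 points (5.25 to 15.4), and within the cluster led by Ngp by 13.4 and 17.9 points. In the finer clustering the cluster led by Stfa3 had shares of only 27.7% to 32.0% over the 4 libraries. There the cluster led by Stfa2 had 36.4% to 47.0% and that led by Cma1, Mcpt4 and Cpa3 29.35% to 50.6%. The part of cells of the Cma1-led cluster in the Stfa3 differences was not tested. The cluster led by Hbb-bs over the pooled libraries gave 8.43 points (3.04 to 13.8) and 5.33 points (0.061 to 10.55). Erythroid genes were high in neutrophil-like cells of the Angptl4-/- library at 5 dpw alone, so this name does not describe the cluster in the other libraries. The cluster led by Igf1r, Rab44 and Dgat1 went the other way in Angptl4-/- wounds, by -14.6 points (-22.6 to -6.36), and gave -1.46 points in Angptl4+/+ wounds with an interval that held 0. The intervals of the remaining clusters held 0, with 0.59 and -0.99 points in the interferon-led cluster, -4.78 and -2.09 points in the cluster led by Fnip2 and 0.73 and -8.93 points in the cluster led by Csf3.

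In macrophage-like cells few members were past 1.5-fold between the days although many other genes were. Psmd5 alone was called in Angptl4+/+ wounds, 1 of 42, at 0.74 (0.42 to 1.06), and Psma4, at 0.71 (0.60 to 0.82), and Psmc2, at 0.60 (0.42 to 0.79), were called in Angptl4-/- wounds, 2 of 42. Over all entered genes 29.1% and 24.1% were called in either direction. Below that fold the members of Angptl4-/- cells had a median of 0.235, beside 0.07 for all genes, with 34 of 42 above 0. Of their intervals 27 lay wholly above 0 and 3 wholly below it. In Angptl4+/+ cells 14 intervals lay wholly above 0 and 11 wholly below it, with medians of 0.04 for the members and 0.15 for all genes. The same intervals were not counted over all genes, so these counts have no background. The 8 neutrophil markers summed to 11124, 1802, 10049 and 1929 CPM in macrophage-like cells, higher at 1 dpw, and their part in these ratios was not tested. Psme3, of PA28 gamma, gave 0.45 and Psmc5 0.36 in Angptl4+/+ wounds, and Psmd7, a subunit of the cap lid, 0.57 in Angptl4-/- wounds. The largest decreases were -0.34 for Psmd8, -0.25 for Psme2 and -0.25 for Psmd10 in Angptl4+/+ wounds and -0.28 for Psmb9, -0.19 for Psmd13 and -0.19 for Psme2 in Angptl4-/- wounds.

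These ratios stood beside a drop of the interferon-induced genes in the same cells. Of the 11 listed genes, 10 fell past 1.5-fold in Angptl4+/+ and 11 in Angptl4-/- macrophage-like cells between 1 and 5 dpw, beside 9.58% and 10.2% of all genes, with medians of -1.33 and -1.22. Psmb8 was higher by 0.18 (0.11 to 0.25) and 0.25 (0.17 to 0.33) over the same interval, and Psmb10 by 0.25 and 0.23. Other immune members were lower, with -0.28 for Psmb9 in Angptl4-/- cells and -0.25 and -0.19 for Psme2, so the immune genes did not move together. Tap1 gave -0.37 and -0.43 and Irf1, a factor known to act on immunoproteasome genes, -0.62 and -0.25. Ifng itself had 0 to 5 UMIs per library in macrophage-like cells, and 96.0, 113.1, 45.0 and 118.8 CPM in NK/T-like cells.

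Among monocyte-like and dendritic cell-like cells the immune share was higher at 5 than at 1 dpw, with constitutive genes lower. In monocyte-like cells it was 58.0%, 70.8%, 59.2% and 66.8%, a difference of 12.7 points (Newcombe 95% interval 9.85 to 15.5) in the Angptl4+/+ libraries and 7.61 points (4.62 to 10.6) in Angptl4-/- wounds. Psmb5 had 247.4, 171.4, 244.0 and 190.1 CPM there and Psmb8 445.8, 565.8, 446.7 and 532.2 CPM. In dendritic cell-like cells the differences were 9.45 points (7.72 to 11.2) and 7.01 points (4.97 to 9.09). Psmb7 had 199.4, 118.2, 179.4 and 94.7 CPM in dendritic cell-like cells, at log2 ratios of -0.76 and -0.92, and Psmb9, at 261.8, 347.5, 260.9 and 317.5 CPM, gave 0.41 and 0.28.

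Called members by day numbered 2 of 38 in monocyte-like cells of Angptl4+/+ wounds, Psmd13 at -0.75 and Psmd6 at -0.60, and 0 of 38 in Angptl4-/- wounds, beside 16.6% and 13.4% of all genes. In dendritic cell-like cells 4 of 42 in Angptl4+/+ wounds (Psmb7, Psmc1, Psmd9 and Psme4) and 5 of 39 in Angptl4-/- wounds (Psma7, Psmb7, Psmc1, Psmd1 and Psme2) were called, all lower at 5 dpw, beside 20.8% and 15.3%. Of all genes 15.1% and 10.98% were called lower there, so the share of members called lower was below this in Angptl4+/+ and slightly above it in Angptl4-/- wounds. In NK/T-like cells 14 of 39 members were called higher and 1 lower in Angptl4+/+ wounds, beside 20.3% and 19.75% of all genes. In Angptl4-/- wounds 9 of 39 were called higher and 1 lower, beside 17.1% and 16.8%. The medians were 0.476 and 0.308 for the members and 0.005 and -0.004 for all genes, on 35 and 36 cells at 1 dpw. The immune share of these cells differed by -1.06 points (-6.73 to 5.05) and -0.65 points (-5.62 to 4.73) between the days.

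Between the genotypes few members were past 1.5-fold, and with all UMIs no class held a larger share of called members than the background. In neutrophil-like cells 0 of 42 members were called at 1 dpw and 1 of 41 at 5 dpw, beside 4.58% and 5.48% of all genes. The called gene was Psmb10, at 17.5 CPM in Angptl4+/+ and 10.6 CPM in Angptl4-/- wounds, a log2 ratio of -0.72 (-1.07 to -0.38). At 5 dpw the share was above the background with cells thinned to 1000 UMIs, where 5 of 32 entered members were called (1 higher and 4 lower) beside 4.72% of all genes, and at a fold of 5 to 4, with 13 of 41 beside 22.4%. Psmb9 gave -0.47 (-0.67 to -0.28) at 5 dpw, from 51.0 and 36.8 CPM, and Psmd6, a subunit of the cap, -0.48. The medians of the members were -0.19 and -0.19, below the -0.09 and -0.07 of all genes. Intervals wholly below 0 were found for 21 and 20 members, and the same count over all genes was not made.

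At 1 dpw Psmb8 was the only entered member of neutrophil-like cells with an interval wholly above 0, at 0.17 (0.06 to 0.29), and Psmc2, Psma5 and Psmd12 had the largest decreases with intervals below 0, at -0.36, -0.34 and -0.31. The immune share was higher in Angptl4-/- than in Angptl4+/+ neutrophil-like cells at 1 dpw, by 4.37 points (2.01 to 6.73), and at 5 dpw the difference was -0.54 points (-2.94 to 1.86). Isg15, an interferon-induced gene, was higher in Angptl4-/- neutrophil-like cells by 1.58 at 1 dpw and 1.24 at 5 dpw on the log2 scale. Most of the listed interferon-induced genes were not called higher there, as given further on, and their part in the immune share was not tested. Within the interferon-led cluster the immune share differed by 0.19 points (-3.26 to 3.66) at 1 dpw and -1.39 points (-5.26 to 2.59) at 5 dpw. At 1 dpw the difference was 9.499 points (1.678 to 17.26) in the cluster led by Igf1r. It was 4.45, 4.41 and 3.58 points in the clusters led by Hbb-bs, Stfa3 and Csf3, with intervals that held 0. The clusters led by Fnip2 and Ngp went the other way, at -2.06 and -3.56 points, and their intervals held 0. Without the interferon-led cluster the share at 1 dpw was 36.63% in Angptl4+/+ and 39.92% in Angptl4-/- neutrophil-like cells. Psme2b, again uncertain, gave 0.55 at 5 dpw and Psmd4, a ubiquitin receptor of the cap, 0.14.

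In macrophage-like cells 0 of 42 members were called at either time, beside 3.93% and 5.11% of all genes. At 1 dpw the members with the largest ratios were Psme2b at 0.49, Psme3 at 0.40 and Psmd13 at 0.14, and the lowest were Psmd8 at -0.34, Psma7 at -0.22 and Psma2 at -0.19. At 5 dpw 26 members had intervals wholly above 0 and 1, Psmb9 at -0.22 (-0.35 to -0.08), wholly below it. The share of all genes with such intervals was not counted, so these counts have no background. The median was 0.17 for the members and -0.02 for all genes, and Psmd3, Psmd6 and Psmd1 of the cap led with 0.42, 0.39 and 0.38. Macrophage-like cells of that Angptl4-/- library had a median depth of 11566 UMIs, against 8348 in the Angptl4+/+ library, and the part of depth was not tested.

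The immune share of macrophage-like cells was 3.84 points (2.18 to 5.49) higher in Angptl4-/- wounds at 1 dpw and 1.97 points lower at 5 dpw, a difference of -1.97 points (-3.32 to -0.62). With every cell thinned to 1000 UMIs these differences were 0.52 points (-4.54 to 5.56) and 1.60 points (-3.10 to 6.24). The value at 5 dpw changed sign there, but both intervals held 0. With each cell weighted equally the directions stayed. The shares were then 51.70% in Angptl4+/+ and 55.07% in Angptl4-/- cells at 1 dpw, and 57.83% and 56.92% at 5 dpw. In the cluster led by Retnla, Arg1 and Mmp12 the differences at 1 and 5 dpw were 3.48 points (0.97 to 5.99) and -4.51 points (-6.61 to -2.39), and in the cluster led by Ms4a7 1.40 points (-0.79 to 3.57) and -1.69 points (-3.41 to 0.03). Between the days the share was 4.33 points (2.98 to 5.67) higher in Angptl4+/+ macrophage-like cells and differed by -1.48 points (-3.14 to 0.18) in Angptl4-/- cells.

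**Figure D5:**
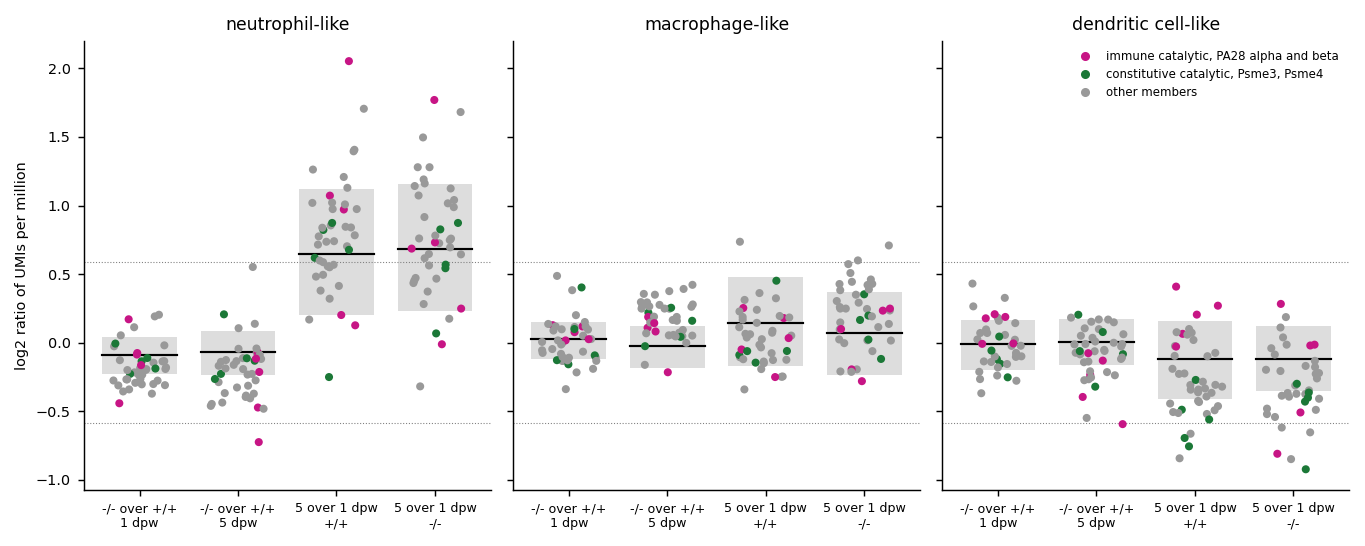
Log2 ratios of the entered members between genotypes and days in 3 classes. Points are members coloured by group, black lines and grey boxes the median and interquartile range of all entered genes, and dotted lines 1.5-fold; the members of neutrophil-like cells scatter around the general shift between the days (medians 0.65 and 0.68). The members of macrophage-like cells have medians of 0.01 and 0.17 between the genotypes at 1 and 5 dpw and of 0.04 and 0.235 between the days.

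In dendritic cell-like cells Psme2 was the 1 called member of 42 at 5 dpw, beside 6.71% of all genes, with 401.1 CPM in Angptl4-/- and 605.1 CPM in Angptl4+/+ wounds, a log2 ratio of -0.59 (-0.69 to -0.49). At 1 dpw 0 of 38 were called, beside 7.17%, and Psme2 gave 0.19 (0.06 to 0.32). Its partner Psme1 gave -0.08 (-0.16 to 0.01) at 5 dpw. In the finer clustering, cells led by Fscn1, Ccl22 and Ccr7 had 1023, 1077, 1266 and 762.3 CPM of Psme2. Those led by Retnla, Mgl2 and Cd209a had 218.8, 146.1, 209.4 and 142.5 CPM, with little between the genotypes at 5 dpw. The cells led by Fscn1 made up 39.6%, 38.1%, 37.1% and 30.9% of dendritic cell-like cells in that clustering, which took in cells of other classes.

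In monocyte-like cells 0 of 40 and 0 of 37 members were called between the genotypes, beside 4.03% and 5.89% of all genes. The immune share differed by 1.21 points (-1.49 to 3.901) at 1 dpw and -3.92 points (-7.01 to -0.80) at 5 dpw, when the mast cell list was high in the Angptl4-/- library. In NK/T-like cells 0 of 41 were called at 5 dpw, beside 4.42%, and the immune share differed by 3.08 points (0.83 to 5.32).

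Genes that build or use the proteasome were followed as lists. Pomp, the chaperone of core assembly, went down with time in neutrophil-like cells, at -0.65 in Angptl4+/+ and -0.71 in Angptl4-/- wounds, against the upward shift of other genes, and 1 of the 5 listed assembly chaperones entered in the former and 2 in the latter. Of 15 class I presentation genes, 7 of 13 entered genes were called higher by day in Angptl4+/+ and 6 of 15 in Angptl4-/- neutrophil-like cells, close to the 53.9% of all genes in the former and below the 55.6% in the latter. Tap1 gave 0.32 and 0.34 there and B2m 0.56 and 0.30. Between the genotypes in neutrophil-like cells 0 of 13 genes of this list were called at 1 dpw, beside 4.58% of all genes. At 5 dpw 2 of 15 were lower, beside 3.64% of all genes. H2-Q7, at -2.13, was among them, a member of a family of near-identical genes and so uncertain. Irf1 gave -0.08 and 0.12 between the genotypes in neutrophil-like cells, while 2 of 10 interferon-induced genes at 1 dpw and 1 of 10 at 5 dpw were called higher, beside 0.943% and 1.84% of all genes. The genes of the NFE2L1 route, known to raise proteasome genes, had 0 of 5 called between the genotypes in macrophage-like cells at either time, and the heat shock list 0 of 7. Of all genes 3.93% and 5.11% were called there at 1 and 5 dpw, so lists this short would mostly hold none.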

How the data were processed

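Live CD45+ cells of 4 libraries, 1 per genotype and time, were analysed. The authors used Cell Ranger 3.1.0 with mm10, and the deposited matrices hold raw counts of UMIs for each gene and barcode; Seurat 3.0 is their tool for later steps, and the submitters' processing notes name the same build. Barcodes with at least 200 genes and at most 10% mitochondrial UMIs were kept. Libraries were joined with Seurat 5.3.0 (R 4.3.3) on 2000 variable genes without the members and their partners, 30 dimensions, resolution 0.5. Doublets were scored with scanpy 1.11.5 (180 to 229 cells per library, top scores; the automatic threshold called 0 to 3) and kept. UMIs were summed per class and library and scaled to CPM; ratios have exact conditional binomial intervals and shares exact intervals (scipy 1.17.1). Ratios and intervals were tested on simulated data. A count of 0 was set against a floor of 3 UMIs. Always named were Psmb5 to Psmb10 and Psme1 to Psme4; in neutrophil-like and macrophage-like cells also the 3 largest increases and decreases with intervals without 0 and the 3 highest and lowest levels; of other lists, up to 2 called genes, Tap1, B2m, Irf1 and Ifng. Some listed genes are not reported here. Other members and cluster-level values named were chosen after their values were seen. The members and lists were chosen with earlier results of these data known. Alternatives were thinning, stricter cell filters, doublet removal, another resolution, no integration, centring, equal weight of cells, no interferon-led clusters, and other UMI minimums and folds.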

Additional observations from a re-analysis of the deposited data

Results flagged for a closer look

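For 8 pairs of values, the interval of each value left out 0 and the directions were opposite in the other genotype or at the other time. The number of pairs searched is not given here, so this count has no background. The differences between the values of a pair were not tested, and no replicate stands behind any of them. In neutrophil-like cells Psmd4 had a log2 ratio of Angptl4-/- over Angptl4+/+ of -0.30 at 1 dpw and 0.14 at 5 dpw, and Psmd14, the deubiquitinase of the cap, a ratio of 5 over 1 dpw of 0.32 in Angptl4+/+ and -0.32 in Angptl4-/- wounds. In macrophage-like cells the immune share differed between the genotypes by 3.84 points at 1 dpw and -1.97 points at 5 dpw. With cells thinned to 1000 UMIs these differences were 0.52 and 1.60 points, with intervals that held 0. The genotype ratio of Psma2 was -0.19 at 1 dpw and 0.15 at 5 dpw, and its day ratio was -0.11 in Angptl4+/+ and 0.24 in Angptl4-/- wounds. Psmb5 gave -0.16 and 0.26 between the genotypes at 1 and 5 dpw, and Psmb6 -0.15 and 0.17 between the days in Angptl4+/+ and Angptl4-/- wounds. In dendritic cell-like cells Psme2 gave 0.19 and -0.59 between the genotypes at 1 and 5 dpw.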

How the results depend on the processing

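Of the immune share differences and call counts in neutrophil-like and macrophage-like cells, 106 values stayed within the limits set for agreement under the alternatives, 37 moved and 1 reversed. The genotype difference of the macrophage immune share at 5 dpw turned to 1.60 points with cells thinned to 1000 UMIs, with an interval that held 0. Thinning also gave -2.97 points for the genotype difference of neutrophil-like cells at 5 dpw, 0.52 for that of macrophage-like cells at 1 dpw and 4.58 for the day difference of Angptl4-/- macrophage-like cells. Each cell weighted equally gave day differences of 6.13 points in Angptl4+/+ and 1.85 in Angptl4-/- macrophage-like cells. Without the interferon-led cluster the day differences of neutrophil-like cells were 9.02 and 4.21 points. Counts of called members follow, each with the share of all entered genes called either way. Between the genotypes in neutrophil-like cells at 1 dpw (0 in the main setting) they were 1 of 44 with no filter, beside 21.2%. At a fold of 5 to 4 they were 4 of 42, beside 18.8%. At 5 dpw (1) they were 5 of 32 with thinning, beside 4.72%, and 13 of 41 at a fold of 5 to 4, beside 22.4%. Stricter cells and centring gave 2 of 41 each, beside 5.46% and 4.82%. With 30 UMIs they were 2 of 42, beside 11.03%, with no filter 2 of 44, beside 19.65%, and at 2-fold 0 of 41, beside 1.015%. By day in Angptl4+/+ neutrophil-like cells (30) they were 19 of 30 with thinning, beside 45.61%, 6 of 42 centred, beside 39.15%, and 11 of 42 at 2-fold, beside 32.25%. In Angptl4-/- cells (27) they were 8 of 41 centred, beside 39.69%, and 12 of 41 at 2-fold, beside 34.53%. In macrophage-like cells, genotype calls at 1 dpw (0) were 2 of 44 with no filter, beside 30.74%, and 4 of 42 at a fold of 5 to 4, beside 16.22%. At 5 dpw (0) they were 1 of 38 with thinning, beside 8.055%, 1 of 44 with no filter, beside 31.48%, and 5 of 42 at a fold of 5 to 4, beside 19.91%. Day calls in Angptl4+/+ macrophage-like cells (1) were 2 of 38 with thinning, beside 25.54%, 2 of 43 with 30 UMIs, beside 33.43%, and 3 of 44 with no filter, beside 33.37%. At 2-fold they were 0 of 42, beside 10.61%, and at a fold of 5 to 4 they were 5 of 42, beside 53.40%. In Angptl4-/- cells (2), of 42 entered, they were 6 with equal weight, beside 26.08%, 4 at resolution 1.0, beside 25.48%, and 1 without doublets, beside 23.53%. Centring gave 1, beside 23.52%, 2-fold 0, beside 7.850%, and a fold of 5 to 4 gave 13, beside 47.94%. Of the named members' ratios, 706 stayed, 93 moved and 1 reversed, Psmb7 by day in Angptl4+/+ neutrophil-like cells, at -0.03 when centred. Of the immune shares of the other classes 66 stayed and 6 moved. The causes were not tested, except that lower folds and looser filters call more genes by construction. No paired analysis was possible because each group held 1 library. Depth limits Psmb10 in neutrophil-like cells, which rested on 57 to 151 UMIs per library.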

Other observations

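Some listed genes outside the proteasome differed more between the libraries than the members did. Isg15, a ubiquitin-like interferon-induced protein, was higher in Angptl4-/- macrophage-like cells by 1.31 on the log2 scale at 1 dpw and 1.38 at 5 dpw, and 5 of 11 interferon-induced genes were at least 1.5-fold higher there at 5 dpw, beside 1.81% of all genes. H2-T23, a class I-like gene, was lower in Angptl4-/- wounds at 1 dpw, with -0.72 in macrophage-like, -0.76 in dendritic cell-like and -1.12 in monocyte-like cells. In monocyte-like cells Tap1 gave ratios of 5 over 1 dpw of 0.75 in Angptl4+/+ and 0.52 in Angptl4-/- wounds, and B2m 0.75 and 0.62.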
